A study of Mus musculus with 16 samples.

Results

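The 164 genes described here carry the biotype TEC in the deposited table of T-cell acute lymphoblastic leukaemia (T-ALL) lines of the mouse. They were chosen by their expression level, as the TEC genes at or above 1 FPKM (fragments scaled to gene length and library size) in at least 2 of the 16 libraries. The table holds 196 TEC genes among 13474, so 32 TEC genes stayed below that level; 9309 genes of all kinds met it and were tested. Just inside the threshold, Gm47567 and Gm42940 had second-highest values of 1.01 and 1.02 FPKM. Just outside, Gm42141 and Gm42572 reached 0.981 and 0.972 FPKM. Of the 164 genes, 115 met the level in at least 2 parental and at least 2 resistant libraries and 25 met it in all 16. Another 12 met it in resistant libraries only, and 6 met it in parental libraries only (Gm37169, Gm43890, Gm45854, Gm38057, Gm17334 and Gm49502), so for these 6 a lower level in resistant cells was partly built into the choice. The genes were also picked out with their lower level in resistant lines already known, so counts in that direction are given as a description.

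TEC is the class that manual annotators give to loci where clustered polyadenylated cDNA ends point to an unspliced transcript of unknown nature that awaits laboratory work. Many such loci lie in introns or close to the ends of protein-coding genes. An intronic transcript with a poly(A) tail can come from its own promoter, from early cleavage and polyadenylation of the surrounding gene, or from priming on an internal A-rich stretch, and expression values alone do not separate these sources.

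The study profiled 5 thymus-derived mouse T-ALL lines in culture. Lines 2883, 2696, 2641 and 2869 are Mcm2cre/cre and hypomorphic for Mcm2, a subunit of the replication helicase, and line 7298 is SCL/LMO1 transgenic. Every line had 1 parental (PBS) library. The 11 drug-resistant derivatives were 3 for cytarabine (7298, 2883, 2869), 3 for vincristine (2883, 2696, 2869), 2 for etoposide (2883, 2696), 2 for prednisone (2883, 2641) and 1 for methotrexate (2883). Cytarabine is a nucleoside analog, vincristine a tubulin binder, etoposide a topoisomerase poison, prednisone a glucocorticoid and methotrexate a folate antagonist. The sources used here do not give doses, selection times or whether a derivative was a clone. No culture was sequenced again, so p-values measure only the spread between these cultures, and derivatives of a line share 1 parental library.

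Depth was 12142000 to 13498000 reads in parental and 14066000 to 18956000 in resistant libraries, so depth and resistance cannot be told apart. The TEC genes took 9322 to 17288 reads per library, and 5 to 30 of the 164 had under 10 reads. All 12 T lineage markers had an entry, with summed levels of 3488 to 7449 CPM (reads scaled to library size) in parental and 4118 to 7522 CPM in resistant libraries. Of other cell types, 1 of 5 B cell, 2 of 5 myeloid, 1 of 6 stromal or epithelial and 0 of 4 erythroid markers had an entry; their summed levels in parental and resistant libraries were at most 2.53 and 13.2 CPM, 34.3 and 25.3 CPM, and 300.4 and 433.0 CPM (Pdgfrb alone). In bulk libraries, fewer cells with a transcript and less transcript per cell cannot be told apart, and the part of these markers in the results was not tested.

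The TEC genes were short, from 421 to 7004 bases with a median of 2454. In the GENCODE vM21 annotation (GRCm38, the sequence of mm10) 162 of the 164 were found, 160 of them still as TEC and 2 as protein-coding, and 159 had identical coordinates. By that annotation 67 lay wholly in introns of a gene on the same strand, 6 lay in a same-strand gene and overlapped its exons, and 17 lay only in a gene on the opposite strand. A further 20 partly overlapped a gene and 54 lay outside genes. In the deposited table, 87 lay within the span of a protein-coding gene expressed here, 70 on its strand and 17 on the other, in 84 different containing genes.

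The 3′ ends of 5 TEC genes are printed first because these 5 had the smallest p-values in the comparison with the genes that contain them. Each is the last 100 bases of the annotated transcript, 5′ to 3′ on its own strand, from GENCODE vM21 (GRCm38). The last 50 bases were searched on the transcript strand for AATAAA or ATTAAA, the commonest poly(A) signals, and none of the 5 held either.
Gm49502, + strand, chr15:82187526-82187625: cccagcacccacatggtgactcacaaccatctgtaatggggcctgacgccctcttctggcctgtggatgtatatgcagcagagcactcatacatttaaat
Gm38057, - strand, chr9:71852001-71852100: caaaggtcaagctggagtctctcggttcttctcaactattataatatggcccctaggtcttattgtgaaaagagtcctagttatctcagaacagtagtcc
Gm47260, - strand, chr12:103412492-103412591: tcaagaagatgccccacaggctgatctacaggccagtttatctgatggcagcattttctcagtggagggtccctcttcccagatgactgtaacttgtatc
Gm43890, - strand, chr6:83314145-83314244: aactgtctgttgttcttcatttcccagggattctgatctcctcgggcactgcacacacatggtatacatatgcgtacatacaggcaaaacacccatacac
Gm42979, + strand, chr5:129558275-129558374: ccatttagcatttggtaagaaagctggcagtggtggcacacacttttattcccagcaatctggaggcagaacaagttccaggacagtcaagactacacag

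For contrast, 2 TEC genes with a signal, chosen after their values were seen, end as follows, with the signal in capitals.
Gm38228, + strand, chr1:43561466-43561565: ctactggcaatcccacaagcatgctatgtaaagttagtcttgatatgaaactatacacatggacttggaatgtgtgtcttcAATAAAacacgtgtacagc
2010008C14Rik, + strand, chr6:125083930-125084029: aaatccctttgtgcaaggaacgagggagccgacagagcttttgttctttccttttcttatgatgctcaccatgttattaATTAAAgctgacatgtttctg
The signal starts 19 bases before the end of Gm38228 and 21 bases before that of 2010008C14Rik. Gm38228 held 3.84 to 7.45 FPKM in parental libraries and 0.589 to 8.94 FPKM in derivatives, and 2010008C14Rik 2.58 to 6.74 and 1.94 to 6.18 FPKM. Among 160 TEC genes of this set, 59 (36.9%) held a signal in the last 50 bases, against 28.6% of 3098 other TEC genes of the annotation, 41.6% of 6058 lincRNA genes and 72.2% of 21901 protein-coding genes. A 50-base window in the middle of the transcript held 1 of these motifs in 5.0% of the set. Of 32 TEC genes lower in resistant cells at an unadjusted p under 0.05 and present in the annotation, 9 (28.1%) held a signal. A match is only a match of letters, and its absence says nothing about how these transcripts end.

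Over the 11 derivatives together, the TEC genes lay below their parental libraries more often than all genes tested, as did several other noncoding classes. No TEC gene passed the adjusted threshold. The median log2 fold change, on log2(FPKM + 1), was -0.10 over the 164 TEC genes and -0.0042 over all genes tested, and 68.9% of TEC genes against 51.0% of all genes were below 0. Also below 0 were 65.6% of lincRNA genes (median -0.11), 65.6% of processed pseudogenes (-0.10) and 71.9% of processed transcripts (-0.073). Antisense genes stood at 49.4% (0.00048). With limma and Benjamini-Hochberg adjustment over all genes, 0 TEC genes were called at 0.05 (0% of all genes). At an unadjusted p under 0.05, 33 TEC genes (20.1%) were lower, against 5.94% of all genes, and 5 (3.05%) were higher, against 3.8%. Below the parental library of their line in every one of the 11 derivatives were 11 TEC genes (6.71%), against 1.83% of all genes, and 1 (Gm47567) was above it in all 11, against 0.73%. The count in every derivative was 24 without the parental library of 2883 and 17 without that of 2869, settings in which fewer derivatives have a parent to be below. The label "lower in resistant lines" thus described part of the set. Both scalings tried left the count of lower genes at 32 and 34.

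**Figure D1:**
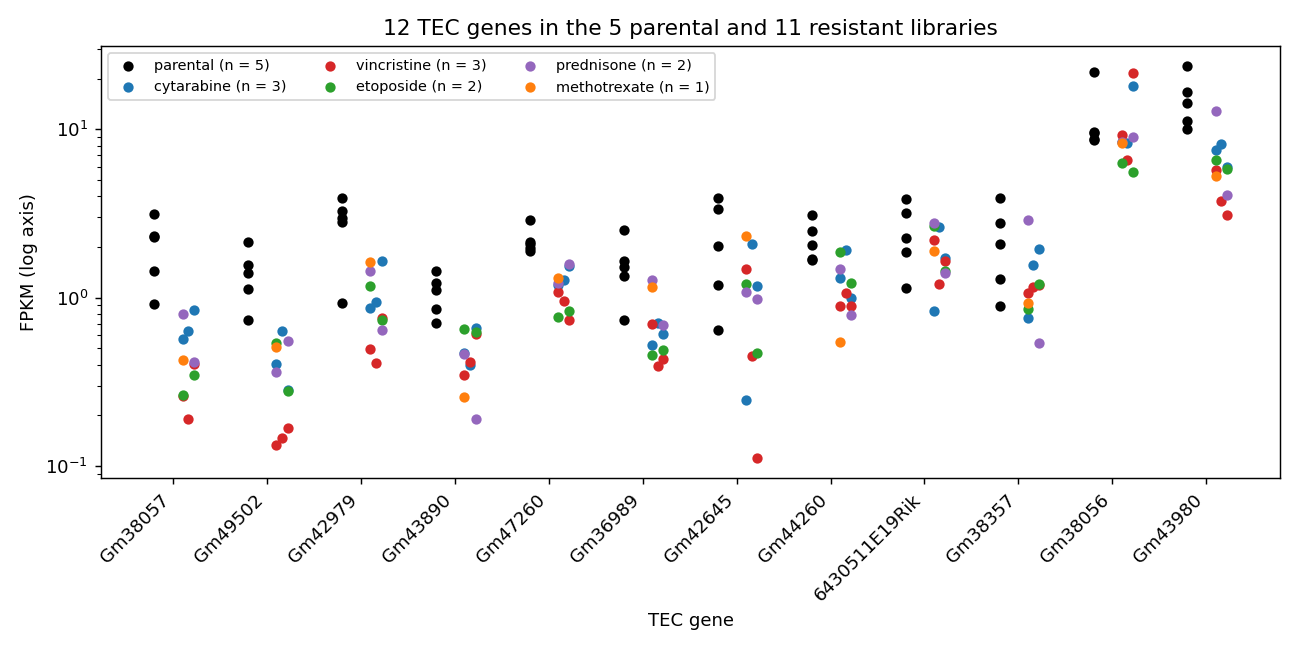
FPKM (log axis) of 12 TEC genes, 1 point per library; black points are the 5 parental libraries and coloured points the 11 derivatives by drug. Gm38057, Gm49502, Gm43890 and Gm47260 are lower in all 11 derivatives than in any parental library, while Gm38056 stands apart in line 2869 in both states. Gm38057, Gm49502 and Gm43890 met 1 FPKM in parental libraries only, so their separation was partly built into the choice.

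Gm38057 (3203 bases, chr9:71852001-71855203, - strand) lies in an intron of Tcf12, which encodes the E protein HEB of thymocyte development. Its parental values were 0.918 (7298), 2.29 (2883), 1.43 (2696), 3.15 (2641) and 2.32 (2869) FPKM. The 11 derivatives ran from 0.190 over a median of 0.413 to 0.849 FPKM, so no derivative reached any parental library. The gene was chosen through parental libraries only, which partly built in this separation. The log2 fold change was -1.02 ± 0.14 (SE), which missed the threshold (limma adjusted p = 0.0728). In recovered reads, the vincristine derivative of 2883 held 12 against 89 in its parent, a depth-corrected ratio of 0.112 (95% exact binomial interval 0.0558 to 0.206, counting error only). The smallest contrast was cytarabine 7298, with 32 against 37 reads and a ratio of 0.617 (0.372 to 1.02). With a pseudocount of 0.1 FPKM, which shrinks low genes less, the change was -1.90. Without either library of line 7298, or with median-of-ratios scaling, the gene passed.

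Gm49502 (2110 bases, chr15:82185516-82187625, + strand) lies in an intron of Srebf2, the master transcription factor of sterol synthesis. Parental values were 1.13 (7298), 1.57 (2883), 2.13 (2696), 1.39 (2641) and 0.741 (2869) FPKM. Derivatives ran from 0.133 over 0.361 to 0.637 FPKM, again all below every parental library and again partly through the choice by parental libraries only. The 3 vincristine derivatives were the lowest of all, at 0.133, 0.146 and 0.168 FPKM in 2883, 2696 and 2869. The log2 fold change was -0.81 ± 0.12 (limma adjusted p = 0.0786). These are small counts: the vincristine derivative of 2883 held 4 reads against 40, a ratio of 0.0832 (0.0216 to 0.230).

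Gm42979 (2228 bases, chr5:129556147-129558374, + strand) lies in an intron of Sfswap, a splicing regulator. Parental values were 3.89 (2883), 2.81 (2696), 2.98 (2641) and 3.26 (2869) FPKM but only 0.929 in 7298. Derivatives ran from 0.409 over 0.866 to 1.64 FPKM, below every parental library of the Mcm2cre/cre lines, whereas in 7298 the derivative (0.866) was close to its parent. The log2 fold change was -1.01 ± 0.18 (limma adjusted p = 0.176). Without the parental or the cytarabine library of 7298, this gene and Gm38057 were the 2 called.

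Gm47260 (3105 bases, chr12:103412492-103415596, - strand) lies in an intron of Ddx24, a DEAD-box RNA helicase. Its parental values were 1.89 (7298), 2.89 (2883), 2.09 (2696), 2.13 (2641) and 1.98 (2869) FPKM, and derivatives ran from 0.732 over 1.19 to 1.58 FPKM with no overlap. It had 34 to 109 reads per library. This placed the log2 difference at -0.59 ± 0.11 (limma adjusted p = 0.213).

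Gm43890 (2799 bases, chr6:83314145-83316943, - strand) lies in an intron of Mthfd2, a mitochondrial enzyme of one-carbon metabolism. Parental values were 0.711 (7298), 0.856 (2883), 1.45 (2696), 1.10 (2641) and 1.22 (2869) FPKM. Derivatives ran from 0.190 over 0.459 to 0.656 FPKM and did not overlap the parental libraries, which the choice through parental libraries only partly built in. The lowest was the prednisone derivative of 2641. The fitted difference was, in log2 units, -0.51 ± 0.094 (limma adjusted p = 0.213).

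Gm36989 (2160 bases) lies in an intron of Matr3, a nuclear matrix RNA-binding protein. Parental values were 0.738 (7298), 1.64 (2883), 1.34 (2696), 2.51 (2641) and 1.51 (2869) FPKM. Derivatives ran from 0.394 over 0.604 to 1.27 FPKM, and the groups overlapped through the low parental library of 7298 and the methotrexate and prednisone derivatives of 2883. On the log2 scale the change was -0.64 ± 0.12 (limma adjusted p = 0.223).

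Gm42645 (1627 bases, chr5:65853332-65854958, + strand) lies outside genes. Parental values were 0.638 (7298), 3.90 (2883), 2.02 (2696), 3.38 (2641) and 1.19 (2869) FPKM, a wide spread between lines. Derivatives ran from 0.111 over 1.08 to 2.32 FPKM and overlapped the parental range, although each lay below its own parent. Its fitted log2 fold change was -0.81 ± 0.17 (limma adjusted p = 0.279). It had the smallest p of any TEC gene lower in the vincristine, etoposide and prednisone comparisons.

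The other 4 genes below the parent in all derivatives were Gm44260, 6430511E19Rik, Gm38357 and Gm38056. Gm44260, in an intron of the pro-apoptotic BH3-only gene Bid, had parental values of 1.67 to 3.10 FPKM and derivatives of 0.547 to 1.92 FPKM, with a log2 fold change of -0.59 ± 0.16. Gm38357, in an intron of the circadian deadenylase-family gene Noct, had parental values of 0.889 to 3.88 FPKM and derivatives of 0.537 to 2.91 FPKM. These groups overlapped widely. The change of Gm38056, in an intron of Plcl1, was small (-0.20 ± 0.10), and its level followed the line: line 2869 held 21.7 FPKM as parent, 18.02 after cytarabine and 21.6 after vincristine, against 8.64 to 9.61 FPKM in the other parental libraries. The remaining one, 6430511E19Rik, partly overlaps a gene and had a fold change of -0.40 ± 0.11. None of the 4 was called with limma (adjusted p = 0.436, 0.442, 0.442 and 0.533 for Gm44260, 6430511E19Rik, Gm38357 and Gm38056).

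Gm43980 (1612 bases, chr6:49254851-49256462) lies inside Tra2a, a splicing activator, but on the opposite strand. Parental values were 16.6 (7298), 11.2 (2883), 14.4 (2696), 23.9 (2641) and 10.0 (2869) FPKM. Derivatives ran from 3.10 over 5.82 to 12.8 FPKM, and 10 of the 11 lay below their parent, the exception being the prednisone derivative of 2883. The log2 fold change was -1.19 ± 0.24 (limma adjusted p = 0.246). Its containing gene was also lower, with a log2 change of -0.47 ± 0.12 in log2(CPM + 0.5) (limma adjusted p = 0.474), and reads of the 2 strands may not be separate here.

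A group of 5 TEC genes was higher at an unadjusted p under 0.05, and all 5 had a limma adjusted p of at least 0.442. Gm45221, in an intron of the clathrin assembly gene Picalm, had 0.620 to 2.69 FPKM in parental libraries and 1.06 to 3.49 in derivatives, with a log2 fold change of 0.57 ± 0.19. Gm42462, in an intron of the iron-sensing gene Fbxl5, had 0.308 to 1.69 and 0.407 to 3.22 FPKM and a fold change of 0.53 ± 0.19. E030022I16Rik, in an intron of the RNA helicase gene Ddx6, stood at 0.41 ± 0.17, Gm45769 at 0.29 ± 0.13, and 5830462I19Rik, antisense within the SREBP chaperone gene Scap, at 0.23 ± 0.09. The parental and derivative ranges of Gm45221 and Gm42462 overlapped. Their counts of 5 against 33 lower genes sat beside 354 against 553 over all genes.

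The summed level of the TEC genes differed between derivatives of the same drug as well as between drugs. Summed over the 164 genes, the level was 853 to 1302 CPM in parental libraries, and the 3 vincristine derivatives, at 563 (2696), 710 (2869) and 725 (2883) CPM, lay below all 5 of them. Cytarabine 7298 and prednisone 2641 lay below all 5 as well. The cytarabine derivatives held 729 (7298), 913 (2869) and 984 (2883) CPM. Etoposide derivatives held 901 and 1034 CPM, prednisone derivatives 729 (2641) and 1004 (2883) CPM, and the methotrexate derivative 878 CPM. Against the parental library of its own line, the sum was 0.514 times in vincristine 2696, 0.560 times in prednisone 2641, 0.677 times in cytarabine 7298, 0.776 times in vincristine 2883 and 0.832 times in vincristine 2869. It was 0.823 times in etoposide 2696 and 0.939 times in methotrexate 2883, and between 1.05 and 1.11 times in cytarabine 2883 and 2869, prednisone 2883 and etoposide 2883. All 3 vincristine derivatives were thus below their parents, while each of cytarabine, etoposide and prednisone had derivatives on both sides. A single gene, Gm49759, which overlaps Pkm exons and whose reads are uncertain, weighed heavily in these sums. It held 5148 of 17288 TEC reads in parental 2641 and 1213 of 13807 in prednisone 2641. Parental and cytarabine 7298 had 3460 of 13557 and 1724 of 12860. Parental and vincristine 2696 had 3317 of 14352 and 425 of 9322. Sums without this gene were not taken.

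**Figure D2:**
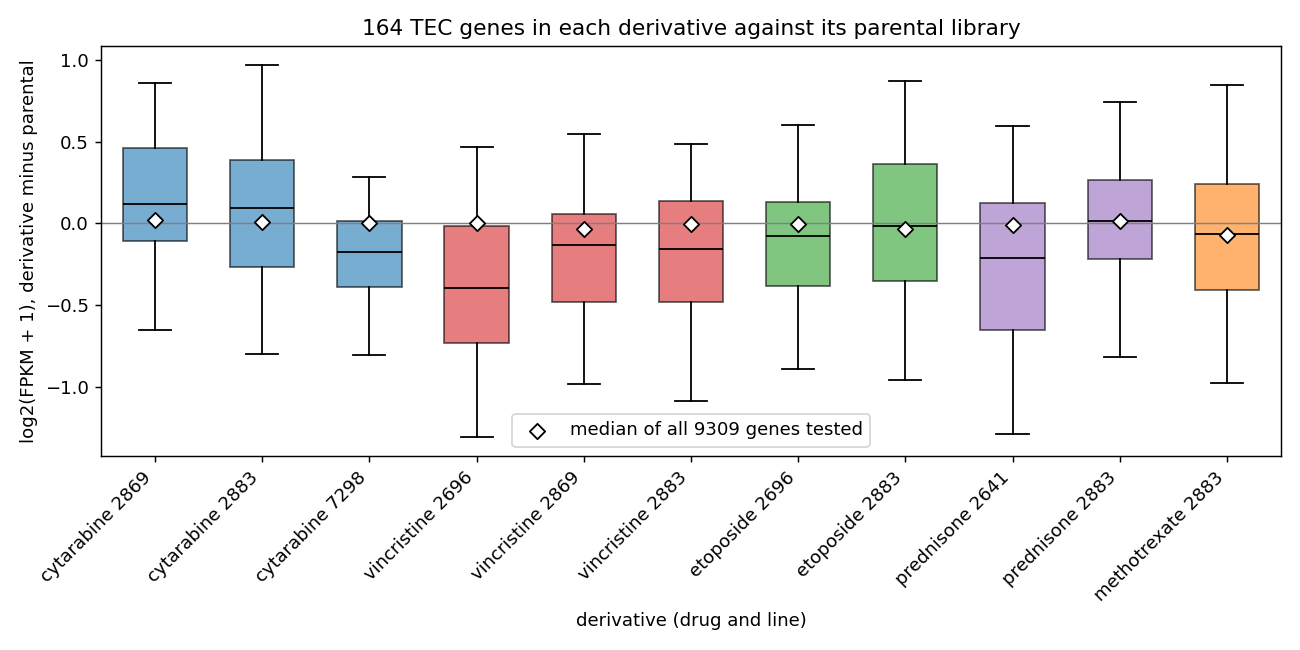
Difference in log2(FPKM + 1) between each derivative and the parental library of its line, over the 164 TEC genes (box, quartiles and median; whiskers at percentiles 5 and 95; points beyond not drawn), with diamonds for all 9309 genes. The median is lowest in vincristine 2696 and above 0 in cytarabine 2883, cytarabine 2869 and prednisone 2883.

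By derivative, 129 of 164 TEC genes (78.7%) lay below the parent in vincristine 2696, against 49.98% of all genes, 112 (68.3%) in vincristine 2869, against 56.2%, and 109 (66.5%) in vincristine 2883, against 51.3%. The share was also above that of all genes in cytarabine 7298 (72.0% against 50.9%), prednisone 2641 (66.5% against 52.6%) and etoposide 2696 (61.0% against 52.3%). It was at or under that of all genes in methotrexate 2883 (57.9% against 60.2%), etoposide 2883 (50.6% against 53.8%), prednisone 2883 (47.6% against 47.9%), cytarabine 2883 (42.1% against 49.2%) and cytarabine 2869 (36.0% against 46.8%). Within line 2883, only the vincristine derivative therefore had more TEC genes below the parent than the share of all genes.

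The medians went the same way. They were -0.40 in vincristine 2696, -0.21 in prednisone 2641, -0.17 in cytarabine 7298, -0.16 in vincristine 2883 and -0.13 in vincristine 2869, where those of all genes lay between -0.034 and 0. Etoposide 2696 was at -0.079 and cytarabine 2869 at 0.12, against -0.0068 and 0.023 for all genes. In the other derivatives of line 2883 the medians of TEC genes and of all genes were 0.094 and 0.0074 (cytarabine), -0.017 and -0.035 (etoposide), -0.065 and -0.074 (methotrexate), and 0.017 and 0.015 (prednisone). For etoposide, methotrexate and prednisone in that line the medians of the TEC genes thus stood at the level of all genes. The shares at a log2 difference of -1 or below were higher, 5.49% against 3.22%, 5.49% against 1.58% and 3.66% against 1.62% of all genes. At 1 or above they were 3.66% against 3.33%, 0.610% against 1.18% and 1.22% against 1.30%.

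With vincristine, 57 TEC genes (34.8%) were lower at an unadjusted p under 0.05, against 7.91% of all genes, and 3 were higher, against 5.94%. The median was -0.29, against -0.016 over all genes. No TEC gene was called by limma after adjustment (0% of all genes). Gm42645 was at -1.01 ± 0.13, Gm42979 at -1.41 ± 0.20, Gm38057 at -1.23 ± 0.19, Gm49502 at -1.04 ± 0.16 and Gm47260 at -0.75 ± 0.13, all with a limma adjusted p of 0.113. Leaving out either library of 7298, the parental library of 2883 or 2696, or cytarabine 2883 gave 1, 1, 1, 1 and 2 calls.

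With cytarabine, 16 TEC genes (9.76%) were lower, against 5.22% of all genes, and 10 (6.1%) were higher, against 5.92%; 0 were called by limma (0% of all genes), and the median was -0.012. Leaving out single libraries moved that median between -0.088 and 0.069, so it has no stable sign. The count of 16 was 6 without the cytarabine derivative of 2883. The lower gene with the smallest p was Gm38057 (-0.74 ± 0.19, limma adjusted p = 0.404). The higher was Gm37691 in an intron of the laminin gene Lamb3, at 0.126, 0.195 and 0.492 FPKM in the parents 7298, 2883 and 2869 and 0.332, 4.14 and 1.79 FPKM in their cytarabine derivatives (1.06 ± 0.28, limma adjusted p = 0.404). Lamb3 itself was at 0.642, 1.33 and 1.04 CPM in these parents and 0.685, 8.73 and 4.96 CPM in these derivatives. Over all derivatives, Gm37691 relative to Lamb3 was at 0.19 ± 0.25 on the log2 scale (limma adjusted p = 0.834). A direct contrast of the drugs, added after these counts were seen, found 40 TEC genes (24.4%) lower with vincristine than with cytarabine at an unadjusted p under 0.05, against 6.12% of all genes, and 4 higher, against 4.46%. None was called by limma (0% of all genes), and 1 was without the parental library of 2696. The 40 became 18 without cytarabine 2869. Depth was 14600000 to 17203000 reads with vincristine and 16947000 to 17675000 with cytarabine, and only vincristine 2869 reached the cytarabine range. Vincristine had fewer reads than cytarabine in line 2883 (14600000 against 17191000) and more in line 2869 (17203000 against 16947000). The part of depth in this contrast was not tested.

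With etoposide, 20 TEC genes (12.2%) were lower, against 5.3% of all genes, and 6 were higher, against 3.59%; 0 were called by limma (0% of all genes), and 1 was without the parental library of 2696. With prednisone, 30 (18.3%) were lower, against 4.74%, and 6 were higher, against 4.43%; no TEC gene was among the 2 genes called by limma (0.0215% of all genes). The prednisone count rested on line 2641, since without its parental library or its derivative it was 7; without cytarabine 2883 or 2869, 1 and 2 TEC genes were called. For methotrexate, with 1 derivative and no test, 9 TEC genes (5.49%) were at a log2 difference of -1 or below, against 1.58% of all genes, and 1 was higher by as much, against 1.18%.

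Gm42686 had the smallest p among the 3 TEC genes higher with vincristine and the 6 higher with etoposide. It lies on the opposite strand inside Abcb1a, the gene of the multidrug efflux pump P-glycoprotein, and 5.89% of its bases overlap Abcb1a exons. Its parental values were 0.00200 to 0.126 FPKM. It thus met the 1 FPKM level in resistant libraries only, so a higher level there was partly built into the choice. The vincristine derivatives of 2883, 2696 and 2869 held 12.1, 0.428 and 7.81 FPKM and the etoposide derivatives of 2883 and 2696 held 10.9 and 1.02 FPKM, while the other 6 derivatives were at or below 0.0565 FPKM. Abcb1a itself was at 0.00752 to 16.0 CPM in parental libraries and at 5237, 178.1 and 3909 CPM in the vincristine and 3757 and 285.9 CPM in the etoposide derivatives. The libraries highest in one were highest in the other, and because reads of overlapping strands may not be separated in this table the values of Gm42686 are uncertain.

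**Figure D3:**
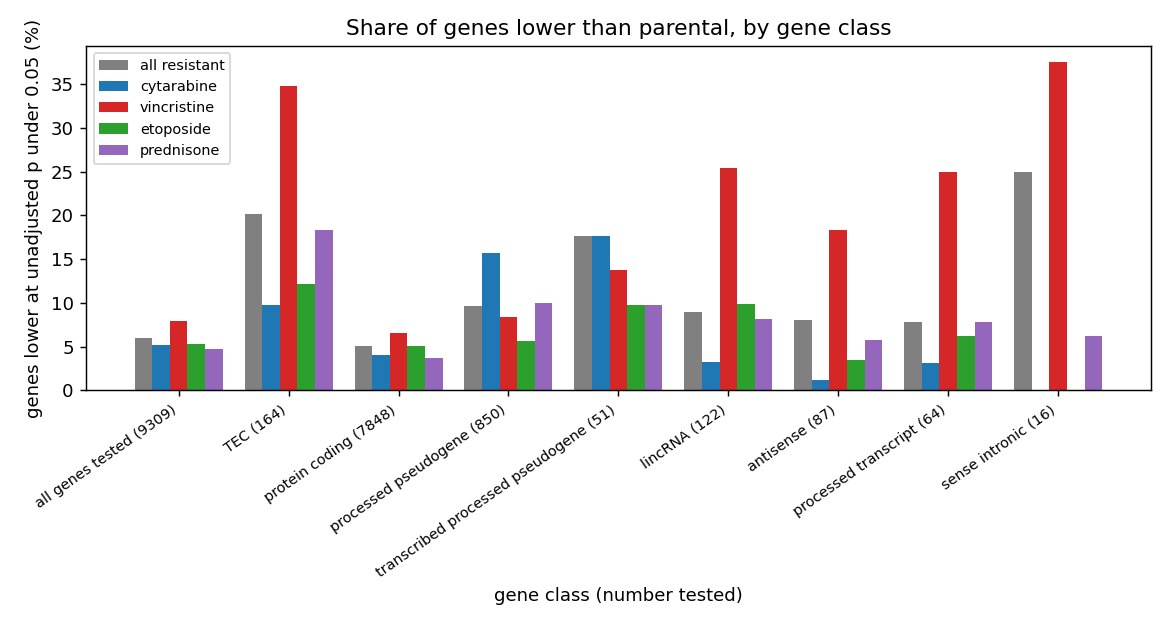
Percent of genes lower than parental at an unadjusted p under 0.05, by gene class (number tested in brackets) and drug; bars start at 0. TEC genes reach 34.8% with vincristine, and lincRNA genes 25.4%, against 6.59% of protein-coding genes.

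Lower levels were also seen in other noncoding classes, and no class differs from another by a test here. With vincristine, 31 of 122 lincRNA genes (25.4%), 16 of 64 processed transcripts (25.0%), 16 of 87 antisense genes (18.4%) and 6 of 16 sense-intronic genes (37.5%) were lower, beside 517 of 7848 protein-coding genes (6.59%). The medians were -0.29 for lincRNA and -0.0064 for protein-coding genes. With cytarabine the order was another: 134 of 850 processed pseudogenes (15.8%) but 4 of 122 lincRNA genes (3.28%) were lower.

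Nuclear RNA genes from fixed lists were read beside this. Of 4 tested nuclear-retained long noncoding RNAs, 0 were called or lower at an unadjusted p under 0.05 over all resistant libraries and 2 were lower with vincristine (7.91% of all genes were), the nuclear speckle RNA Malat1 (-1.10 ± 0.47) and the paraspeckle RNA Neat1 (-2.23 ± 0.56). Of 16 tested genes of the nuclear RNA exosome and its adaptors, which degrade unstable nuclear transcripts, 1 was lower in resistant libraries, Exosc9 (-0.28 ± 0.11), and 2 were higher, Exosc4 (0.35 ± 0.11) and Exosc10 (0.23 ± 0.086), against 5.94% and 3.8% of all genes. With vincristine 2 of them were lower, Zfc3h1 (-0.61 ± 0.17) and Pabpn1 (-0.43 ± 0.16), and 1 was higher, Exosc4 (0.53 ± 0.14). Of 20 cleavage, polyadenylation and U1 snRNP genes, 0 were lower and 3 were higher, Cpsf1 (0.39 ± 0.11), Sympk (0.24 ± 0.10) and Fip1l1 (0.17 ± 0.078); with vincristine 0 were lower and 1 was higher, Fip1l1 (0.30 ± 0.095). None of these list genes was called by limma after adjustment. Their part in the TEC values was not tested.

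By position, the 67 TEC genes in same-strand introns had a median of -0.12 over all resistant libraries and -0.35 with vincristine, and 29 were lower with vincristine, where 7.91% of all genes were. The 54 outside genes had medians of -0.18 and -0.30, with 18 lower. The 17 on the opposite strand of a gene were closer to 0, with medians of -0.024 and -0.11, and the 18 that start within 5000 bases after the end of a same-strand gene stood at 0.045 and 0.10. These groups were not compared by a test. By length, 15 of the longer 82 and 18 of the shorter 82 were lower over all resistant libraries, where 5.94% of all genes were.

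For the 87 TEC genes inside an expressed protein-coding gene, the question was whether they moved with that gene. Each was set beside the containing gene as a difference in log2(CPM + 0.5) and fitted together with all other such pairs, 485 in all. The TEC gene fell relative to its containing gene in 6 pairs by limma after adjustment, and these 6 were all the pairs called among the 485 (1.24%). At an unadjusted p under 0.05, 22 pairs (25.3%) were lower, against 9.48% of all pairs, and 4 (4.6%) were higher, against 2.27%. The shares of all pairs include the TEC pairs; of the 398 pairs of other genes, 24 were lower and 7 higher. The median difference was -0.14 for TEC pairs and -0.094 for the 398 pairs of other genes. Counting signs alone, the TEC gene lay below its containing gene in 54 of 87 pairs, close to the 243 of 398 pairs of other genes. All 6 called TEC genes lie in introns on the strand of the containing gene, and 3 of them (Gm38057, Gm49502 and Gm43890) met the 1 FPKM level in parental libraries only.

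**Figure D4:**
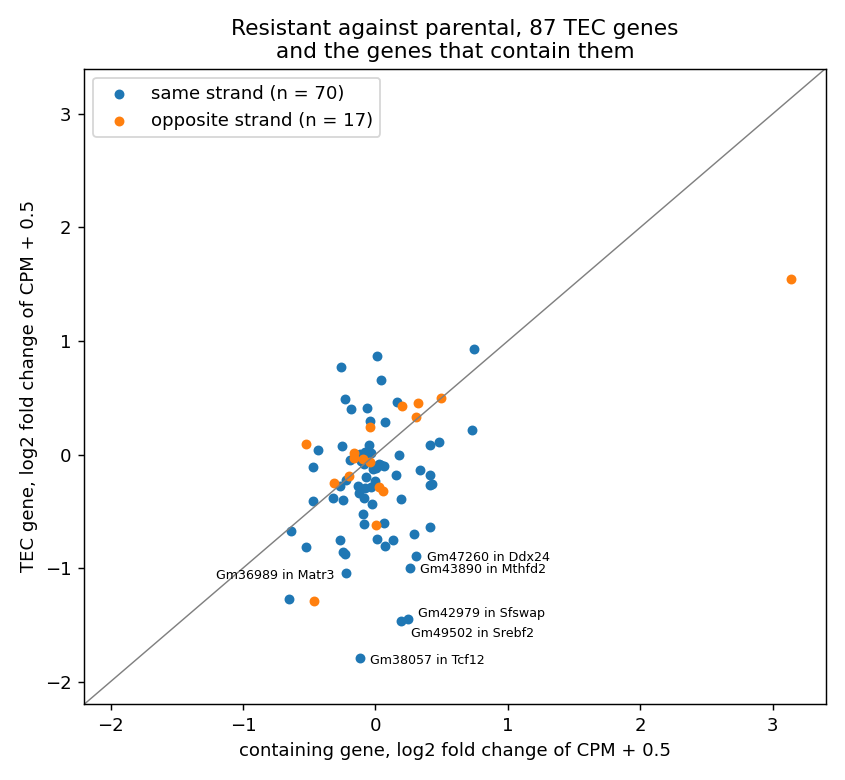
Log2 fold change of CPM + 0.5, resistant against parental, of 87 TEC genes (vertical) and of the protein-coding genes that contain them (horizontal), by strand; the line marks equal change. The 6 labelled pairs passed the test and lie below the line, and the point at the far right is Gm42686 in Abcb1a.

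Gm49502 fell by 1.66 ± 0.20 relative to Srebf2 on the log2 scale (limma adjusted p = 0.000761). Srebf2 was at 368 to 524 CPM in parental libraries and 401 to 655 CPM in derivatives, a log2 change of 0.19 ± 0.13 (limma adjusted p = 0.689). Gm38057 fell by 1.67 ± 0.23 relative to Tcf12 (limma adjusted p = 0.0016). Tcf12 itself ran over much the same range in both groups, 344 to 878 and 363 to 851 CPM. In both pairs the containing gene overlapped between groups while the intronic gene did not. Both intronic genes met the 1 FPKM level in parental libraries only, so their lack of overlap was partly built into the choice.

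Gm47260 fell by 1.20 ± 0.17 relative to Ddx24 (limma adjusted p = 0.00168), with Ddx24 at 73.0 to 111 CPM in parental libraries and 88.5 to 143 CPM in derivatives. Gm43890 fell by 1.26 ± 0.23 relative to Mthfd2 (limma adjusted p = 0.0131), and Mthfd2 varied from 105 to 241 and from 94.3 to 350 CPM. Gm42979 fell by 1.69 ± 0.32 relative to Sfswap (limma adjusted p = 0.0131), with Sfswap at 61.5 to 93.0 and 71.7 to 136 CPM. Ddx24, Mthfd2 and Sfswap stood slightly higher in derivatives, by 0.31 ± 0.13, 0.26 ± 0.20 and 0.24 ± 0.16, without passing the test. Gm36989 fell by 0.82 ± 0.18 relative to Matr3 (limma adjusted p = 0.0421), where Matr3 was itself lower by -0.23 ± 0.093. This last call is the weakest and was lost in 16 of 29 alternative settings, its adjusted p reaching 0.279.

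The calls rested on few libraries. The 6 calls became 3 without the parental library of 2696, 3 without that of 2641, 3 without the prednisone derivative of 2641 and 0 without line 2883. With genes at 2 FPKM or more in at least 4 libraries, 1 call was left. Over 29 alternative settings the calls of Gm49502, Gm38057 and Gm47260 were each lost in 1, that of Gm43890 in 4 and that of Gm42979 in 6, with adjusted p-values of limma reaching 0.119.

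With vincristine the separation was wider. The TEC gene stood below its containing gene in 69 of 87 pairs, against 227 of 398 other pairs, and the median differences were -0.51 for TEC pairs and -0.077 for other pairs, the TEC genes themselves being at -0.52 and the containing genes at -0.094. At an unadjusted p under 0.05, 34 TEC pairs (39.1%) were lower, against 13.4% of all pairs, and 2 (2.3%) were higher, against 3.51%. Of the 398 other pairs, 31 were lower and 15 higher. After adjustment 6 TEC pairs were called by limma, of 9 called in all (1.86% of pairs). Gm38057 fell by 2.13 ± 0.27, Gm42979 by 2.31 ± 0.35, Gm49502 by 1.92 ± 0.27, Gm43890 by 1.65 ± 0.32 and Gm47260 by 1.48 ± 0.24, each relative to its containing gene. Of these, Gm38057, Gm49502 and Gm43890 met the 1 FPKM level in parental libraries only, so their fall was partly built into the choice. The sixth, Gm42686, was at -4.38 ± 0.69, a pair in which both genes were higher than in the parents and Abcb1a by more. In parental 2883 Gm42686 had 0 reads and Abcb1a 0.00824 CPM, so this difference depends on the 0.5 CPM added to both. Gm42686 also met the 1 FPKM level in resistant libraries only. The calls became 0 without vincristine 2696, 0 without line 2883 and 3 without vincristine 2869, and the 34 lower pairs became 21 without vincristine 2696.

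By strand, the 70 same-strand pairs had a median difference of -0.18 and 47 lay below the containing gene, while the 17 opposite-strand pairs were at 0.025 with 7 below; over all 485 pairs, 297 lay below. With vincristine the medians were -0.58 and -0.072. Across pairs, the change of the TEC gene and that of its containing gene had a Pearson correlation of 0.40 over 87 pairs, or 0.23 without Gm42686, as a description over genes that share libraries. Reads of TEC genes inside containing genes were rarely divided: 87.5% of their values between 0.5 and 200 reads lay within 0.05 of a whole read, against 78.2% for the other TEC genes and 61.1% for other genes. These sets may differ in read number, and a whole count does not show which transcript a read came from.

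Among the most abundant TEC genes, Gm49759 had the highest median, 36.1 FPKM; it lies in Pkm, the pyruvate kinase gene of glycolysis, and overlaps its exons over 8.59% of its length, so reads of both are uncertain. Parental libraries held 30.1 to 99.6 FPKM and derivatives 6.59 to 66.7 FPKM, and Pkm itself 2985 to 4804 and 1003 to 4519 CPM. Vincristine 2696 was lowest in both. Gm44510, Gm37599, Gm10252 and Gm38056 followed with medians of 13.4, 10.3, 9.53 and 8.67 FPKM.

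Some TEC genes differed widely between the parental libraries. Gm48840 had 5.82 FPKM in parental 2696 and 6.62 and 3.31 FPKM in its etoposide and vincristine derivatives, against 0.0595 to 0.467 FPKM in the other 4 parental libraries. Gm38244 ran from 0.00318 FPKM in parental 2883 to 17.0 FPKM in parental 2696 and also varied within line 2883, with 0 reads in the parent and 928, 317, 49, 7 and 3 reads in the cytarabine, etoposide, vincristine, methotrexate and prednisone derivatives. Gm43197 was at 9.33 FPKM in parental 7298 and 3.90 FPKM in its derivative, against 0.131 to 2.78 FPKM in the other parental libraries. Within line 2883 it had 4 reads in the parent and 122 with cytarabine, a ratio of 21.5 (95% exact binomial interval 8.20 to 80.3), and 78 with etoposide, a ratio of 16.6 (6.23 to 62.5). Of these 3 genes, Gm48840 alone was high in every library of 1 line and lower in all the others. Gm45705 and Gm45706, on opposite strands, share 2134 bases, and in all 12 libraries with at least 20 reads over both their read ratio was 1.05. Such a fixed ratio means that these 2 entries carry a single measurement, and values of genes that overlap on opposite strands are treated as uncertain.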

How the data were processed

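Total RNA (RNeasy) of 16 cultures was made into libraries with the Illumina Stranded mRNA Prep kit, per the labels' protocols. The authors deposited 1 table of FPKM values; per the submitters' processing notes the tools were STAR, cutadapt and Partek, on mm10. Versions, annotation and how reads were counted: not given in the sources used here. The length behind the FPKM is the whole span of a gene with introns, so CPM was recovered as FPKM times length and reads from the steps between low values, after removing the 0.1 read per gene that the values show; levels of genes with introns are compared in CPM.

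The tests used limma 3.58.1 (R 4.3.3; eBayes with trend) on log2(FPKM + 1) for genes at 1 FPKM or more in at least 2 libraries, a scale that understates changes of low genes. The resistance model had terms for cell line and resistance (10 residual degrees of freedom) and the drug model terms for line and drug (6). P-values are two-sided with Benjamini-Hochberg adjustment over all genes tested, or over all 485 nested pairs, at 0.05; errors are SE. The line term pairs each derivative with its parent, since the labels give both the same line. A containing gene was the shortest protein-coding gene whose span holds the TEC gene. Vincristine against cytarabine, the pair fit by drug, the whole-read shares and the end-sequence search were added after values were seen. Positions and 3′ ends came from GENCODE vM21, summarised with Python 3.11.15 and pandas 2.3.3. The scripts were tested on simulated data.

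The genes and lists were chosen with earlier results of these data known. Named were the 12 lower TEC genes with the smallest p, those below the parent in all derivatives first; the 5 higher ones with the smallest p; all called ones; the first in each direction for each drug; the 5 with the widest parental range; and the 5 with the highest median. Alternatives were no line block, other pseudocounts, no filter, CPM, median-of-ratios and quantile scaling, stricter membership, other containing genes, and leaving out each library, and, added later, line 7298 or 2883.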

Additional observations from a re-analysis of the deposited data

Results flagged for a closer look

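Among 28 named TEC genes, 4 had 1 parental library far from the other 4 (gap over range above 0.71, Dixon's critical value for 5 libraries). Chance flags about 1 in 20 groups, but that rate is no yardstick here, since 5 of the 28 genes, Gm43197 and Gm48840 among them, were named for a wide range over these same libraries. Gm47260 was at 2.89 FPKM in parental 2883, Gm38056 at 21.7 FPKM in parental 2869, Gm43197 at 9.33 FPKM in parental 7298 and Gm48840 at 5.82 FPKM in parental 2696. For Gm38056 and Gm48840 the derivatives of the same line were high as well. For Gm47260 the other 4 parental libraries still lay above every derivative.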

How the results depend on the processing

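The cytarabine median changed sign when single libraries were left out, as given above, and no called gene or pair changed direction. With single libraries left out the counts ranged as follows. Lower TEC genes over all derivatives numbered 23 to 41 and calls 0 to 2 (2 without line 7298, 1 with median-of-ratios scaling); genes below the parent in every derivative numbered 11 to 24 (24 without line 2883). Lower counts were 6 to 21 for cytarabine, 44 to 61 for vincristine, 14 to 25 for etoposide, 7 to 36 for prednisone and 18 to 51 for vincristine against cytarabine. Calls were 0 to 2 for vincristine (1 without line 7298), 0 to 1 for etoposide, 0 to 2 for prednisone and 0 to 1 for vincristine against cytarabine. Against the containing gene, calls were 3 to 8 (0 without line 2883), and with vincristine 0 to 6 (0 without line 2883) and lower pairs 21 to 34. Without the replicate block for line, lower counts were 24 over all derivatives, 6 for etoposide, 11 for prednisone and 21 for vincristine against cytarabine, and 10 pairs were called with vincristine. On log2(CPM + 0.5), etoposide had 12 lower genes. The vincristine median was -0.56 with a pseudocount of 0.1 FPKM and -0.50 on log2(CPM + 0.5). With membership at 2 FPKM in 4 libraries, which leaves fewer genes, lower counts were 17 over all derivatives, 5 in every derivative, 9, 24, 9 and 14 for cytarabine, vincristine, etoposide and prednisone, 15 for vincristine against cytarabine, and 9 lower and 1 called against the containing gene (14 and 1 with vincristine). With opposite-strand containing genes only, these were 2 and 0 (median difference 0.025), and 5 and 1 with vincristine (median -0.072). Apart from the changes of sets of genes, the cause was not tested. Depth limits the lowest TEC genes, some of which rest on fewer than 10 reads.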
